A study of Mus musculus with 18 samples.

Results

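Chondroitin sulfate is the sulfated sugar chain that gives aggrecan, the main proteoglycan of cartilage, its negative charge. Of the 49184 annotated mouse genes with estimated counts, 10 that build this chain are described here, listed by name with earlier results of these data known: Ugdh, Slc26a2, Papss2, Xylt1, Csgalnact1, Chsy1, Chsy3, Chpf, Chst3 and Chst11. All 10 passed the filter on low counts in each fit. In injured knees at day 7, 8 of the 10 transcripts were called higher than in naive knees, as were 10.4% of all genes tested. They rose by 1.61- to 4.23-fold, whereas the sulfotransferases Chst3 and Chst11 were not called.

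The chain is made in the Golgi on a serine of a core protein. Xylosyltransferases place the first xylose, further enzymes complete a short linker, and addition of N-acetylgalactosamine commits the linker to chondroitin sulfate rather than heparan sulfate. Synthases then alternate glucuronic acid and N-acetylgalactosamine, and sulfotransferases modify the growing chain. The substrates come from cytosolic UDP-sugars, from sulfate carried into the cell, and from PAPS, the activated sulfate donor. Loss of sulfate uptake or of PAPS synthesis in growing cartilage is a known cause of skeletal dysplasia.

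The study ruptured the anterior cruciate ligament (ACL) of the right knee in male C57bl6 mice of 12 weeks by a single load of 12 N, and sequenced total RNA of femoral condyle cartilage caps after removal of ribosomal RNA. The 18 libraries comprised 3 from injured right knees and 3 from contralateral left knees at day 1, 3 of each at day 7, and 6 from naive mice, which the labels place at day 7. All groups were of this strain. Libraries were pools of mice, of 2 knees at day 1 and in naive mice and 4 knees at day 7 by the study's methods, and of 4 mice throughout by the series description. Naive pools were kept separate by side. The study's methods give 6 naive mice, so by its pool sizes a mouse appears in more than 1 naive library. Contralateral knees were the other knees of the ruptured mice, so both groups of a time point share mice, which the labels do not pair. The fits did not use that pairing. Total estimated counts ran from 16074762 to 41794005 per library, with a median of 25465706.

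The tissue is labelled as cartilage and chondrocytes, and the libraries also held transcripts of other tissues. Among 16 chondrocyte markers, none was at 0 in any library. Col2a1, the main cartilage collagen, averaged 3240.3 ± 886 CPM (counts per 1000000 of the library, scaled by its TMM factor; SD, n = 6) in naive libraries and 3800 ± 276 (SD, n = 3) in injured libraries at day 7. Matn1 was the lowest chondrocyte marker, at 3.36 CPM in naive libraries. In the same naive libraries the beta-globin transcript Hbb-bs averaged 14131 CPM, the muscle myosin Myh4 averaged 2084 CPM and the neutrophil alarmin S100a8 averaged 2640.4 CPM. In such bulk samples fewer cells of a type and less RNA per cell cannot be told apart.

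Contralateral replicate 1 of day 7 stood apart from the other libraries. Its 10 most abundant genes took 42.5% of counts, against 16.6% to 29.8% elsewhere, and 68015 transcripts had a count above 0, the fewest of the 18 libraries. Its fibroblast markers summed to 83802 CPM and its chondrocyte markers to 15471 CPM, above the other contralateral libraries of day 7. These sums were mostly collagen, with Col1a1 at 52440.5, Col1a2 at 27123 and Col2a1 at 10448 CPM. Of the 12 fibroblast markers, 6 lay above the naive range in this library, 5 within it, among them Pdgfra, Thy1 and Dpt, and Fap below it. Of the 16 chondrocyte markers, 9 lay above the naive range, 3 within it and 4 below it, namely Hapln1, Prg4, Sox9 and Cnmd. The number of members called in each comparison with the day 7 contralateral group is therefore also given without it.

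Among the enzymes of chain polymerisation, Chpf and Chsy1 act together, and Chsy3 is a further synthase. Promoter sequence for 2 members that rose together, Chpf and Chsy1, and for the sulfotransferases Chst3 and Chst11, which were not called, is printed as the 250 bases before the RefSeq transcript start, read 5′ to 3′ on the gene's strand (GRCm38.p6). Of the 10 members, 6 were searched in this way. Capitals mark TGACGTCA, which reads the same on both strands, and GGGCGG or its reverse complement. The 4 windows lie at chr1:75479472-75479721 (minus strand, Chpf), chr7:66109242-66109491 (plus strand, Chsy1), chr10:60219261-60219510 (minus strand, Chst3) and chr10:82985247-82985496 (plus strand, Chst11).
Chpf: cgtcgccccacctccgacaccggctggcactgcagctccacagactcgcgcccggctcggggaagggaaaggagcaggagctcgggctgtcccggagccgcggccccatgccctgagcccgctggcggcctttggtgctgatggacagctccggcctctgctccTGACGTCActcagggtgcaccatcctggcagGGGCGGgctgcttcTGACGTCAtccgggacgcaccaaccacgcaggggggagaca
Chsy1: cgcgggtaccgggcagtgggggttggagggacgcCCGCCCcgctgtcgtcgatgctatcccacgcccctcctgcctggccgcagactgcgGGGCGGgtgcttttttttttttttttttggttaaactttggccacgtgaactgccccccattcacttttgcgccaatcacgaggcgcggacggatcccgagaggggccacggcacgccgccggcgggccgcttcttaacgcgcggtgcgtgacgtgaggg
Chst3: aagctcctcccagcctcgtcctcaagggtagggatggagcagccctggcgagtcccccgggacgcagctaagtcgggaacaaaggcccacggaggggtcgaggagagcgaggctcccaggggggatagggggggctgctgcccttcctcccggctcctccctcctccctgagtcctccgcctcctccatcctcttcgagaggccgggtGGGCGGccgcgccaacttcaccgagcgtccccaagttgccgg
Chst11: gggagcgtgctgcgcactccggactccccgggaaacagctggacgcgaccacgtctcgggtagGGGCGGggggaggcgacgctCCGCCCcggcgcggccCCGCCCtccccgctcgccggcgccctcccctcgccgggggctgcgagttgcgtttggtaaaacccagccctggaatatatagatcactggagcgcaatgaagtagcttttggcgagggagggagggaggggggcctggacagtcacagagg

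The Chpf window held TGACGTCA at 2 places, starting 86 and 41 bases before the transcript start. Of 32851 promoter windows of this length, 1.55% held this motif at least once and 0.0304% at 2 or more places, and the other members searched held none. GGGCGG occurred once in the Chpf and Chst3 windows, at 2 places for Chsy1 and at 3 for Chst11. It occurred at least once in 32.7% of all windows, and it was present in the windows of called and uncalled members alike. TATAAA, present in 12.4% of all windows, was in none of those searched. The motif TGACGTCA was picked after the sequences had been read, and these matches are letters in a window, not measured sites.

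The 4 members that start and extend the chain had the largest differences among the 10 between injured and naive knees at day 7. Chpf, the polymerising factor that partners the chondroitin synthases, was at 74.7, 67.0 and 81.8 CPM in the 3 injured libraries. The 6 naive libraries lay between 15.9 and 20.4 CPM with a median of 18.1. In contralateral libraries of day 7 it was at 32.0, 14 and 18.1 CPM. No injured library overlapped either control group, and the highest control value was in the library that stood apart. Chpf was 4.23-fold higher than in naive knees (log2 fold change 2.08 ± 0.13, SE; adjusted p = 2.26e-08). Against the contralateral knees the log2 fold change was 1.82 ± 0.23 (SE; adjusted p = 2.57e-05), and it was 2.23 without contralateral replicate 1 (adjusted p = 1.04e-06).

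Chsy3, a chondroitin synthase transcribed at a low level, was at 18.8, 24.5 and 24.7 CPM in the injured libraries of day 7. Naive libraries ran from 5.63 to 7.96 CPM with a median of 7.21, and contralateral libraries of day 7 were at 4.83, 5.30 and 6.52 CPM. The injured libraries again lay apart from both. The fold change over naive knees was 3.25 (log2 1.70 ± 0.14, SE; adjusted p = 2.86e-07), resting on 99 to 224 estimated counts per naive library and 387 to 534 per injured library. Of the Chsy3 counts, 68.6% fell on the protein-coding transcript and the rest on a retained-intron and a nonsense-mediated decay transcript. The protein-coding share of Chsy3 transcript abundance was 67.1% in naive and 78.7% in injured libraries of day 7, a difference that was not tested.

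Chsy1, the chondroitin synthase that the Chpf product assists, was at 112, 116 and 131 CPM in injured libraries of day 7. In naive libraries it lay between 52.8 and 65.2 CPM with a median of 57.5, and contralateral libraries of day 7 were at 62.7, 70.2 and 67.3 CPM. The injured libraries lay above both control groups, which overlapped each other. Chsy1 was 2.07-fold higher than in naive knees (log2 1.05 ± 0.09, SE; adjusted p = 8.87e-07). An antisense gene, Gm26827, overlaps its exons, and the strand setting of the quantification is not given in the sources used here.

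Csgalnact1 adds the first N-acetylgalactosamine and so starts the chain. It was at 41.8, 44.2 and 47.3 CPM in injured libraries of day 7, above a naive range of 12.6 to 32.3 CPM with a median of 15.3. The contralateral libraries of day 7 were at 16.7, 13.6 and 14.7 CPM. Relative to their level, the naive libraries were spread more widely for Csgalnact1 than for Chpf, Chsy3 or Chsy1, with naive replicate 5 at 32.3 CPM. Of the day 1 libraries, contralateral replicate 3 was at 30.4 and injured replicate 2 at 28.2 CPM. The fold change over naive knees was 2.51, and its log2 value of 1.33 had the largest standard error among the members, 0.30 (adjusted p = 0.00417).

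Xylt1 codes for a xylosyltransferase that places the first sugar on the core protein. Injured libraries of day 7 were at 144, 148 and 168 CPM, above a naive range of 78.9 to 103.3 CPM with a median of 95.9. Contralateral libraries of day 7 were at 84.2, 89.8 and 92.5 CPM, also below every injured library. Xylt1 rose 1.65-fold over naive knees (log2 0.72 ± 0.09, SE; adjusted p = 1.45e-05).

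Ugdh, Slc26a2 and Papss2 supply the chain. Ugdh, which oxidises UDP-glucose to UDP-glucuronic acid, was at 120, 130 and 167 CPM in injured libraries of day 7, with naive libraries between 64.1 and 91.0 CPM and a median of 72.9. Its contralateral libraries of day 7 were at 51.5, 72.2 and 72.3 CPM, and those of day 1 reached 102 CPM. No library of another group reached the lowest injured value, and Ugdh rose 1.89-fold over naive (log2 0.91 ± 0.17, SE; adjusted p = 9.77e-04). A protein-coding gene on the same strand, Gm43552, overlaps Ugdh exons, and how counts were shared between them was not tested. The sulfate transporter Slc26a2 was at 82.8, 95.5 and 99.5 CPM in injured libraries of day 7, against a naive range of 52.5 to 63.7 CPM with a median of 57.9. Contralateral libraries of day 7 were at 67.3, 62.4 and 59.0 CPM.

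The injured libraries lay above both overlapping control groups for Slc26a2, and it rose 1.61-fold over naive knees (log2 0.69 ± 0.07, SE; adjusted p = 5.55e-06). Papss2, which makes PAPS, was at 81.3, 83.3 and 99.2 CPM in injured libraries of day 7, against a naive range of 45.4 to 58.0 CPM with a median of 52.9. Contralateral libraries of day 7 were at 60.2, 53.7 and 59.1 CPM. Papss2 was likewise higher in every injured library of day 7 than in either control group, and rose 1.71-fold over naive knees (log2 0.77 ± 0.09, SE; adjusted p = 8.62e-06).

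Neither of the sulfotransferases among the members passed the test. Chst11, the main chondroitin 4-O-sulfotransferase of cartilage, was at 104.6, 118.8 and 119.2 CPM in injured libraries of day 7 and between 95.7 and 117 CPM, with a median of 101, in naive libraries. In contralateral libraries of day 7 it was at 98.9, 106 and 115 CPM. These ranges overlapped. Its log2 difference from naive knees was 0.16 with a 95% interval from -0.01 to 0.34 (adjusted p = 0.136), and this upper bound lies below the 1.5-fold limit.

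Chst3 sulfates chondroitin at the 6-O position. It was at 37.8, 36.8 and 31.7 CPM in injured libraries of day 7 and between 26.2 and 45.2 CPM, with a median of 37.1, in naive libraries. In contralateral libraries of day 7 it was at 47.0, 39.4 and 34.7 CPM, so all 3 groups overlapped. The log2 difference from naive knees was -0.06 with a 95% interval from -0.39 to 0.28 (adjusted p = 0.814).

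**Figure D1:**
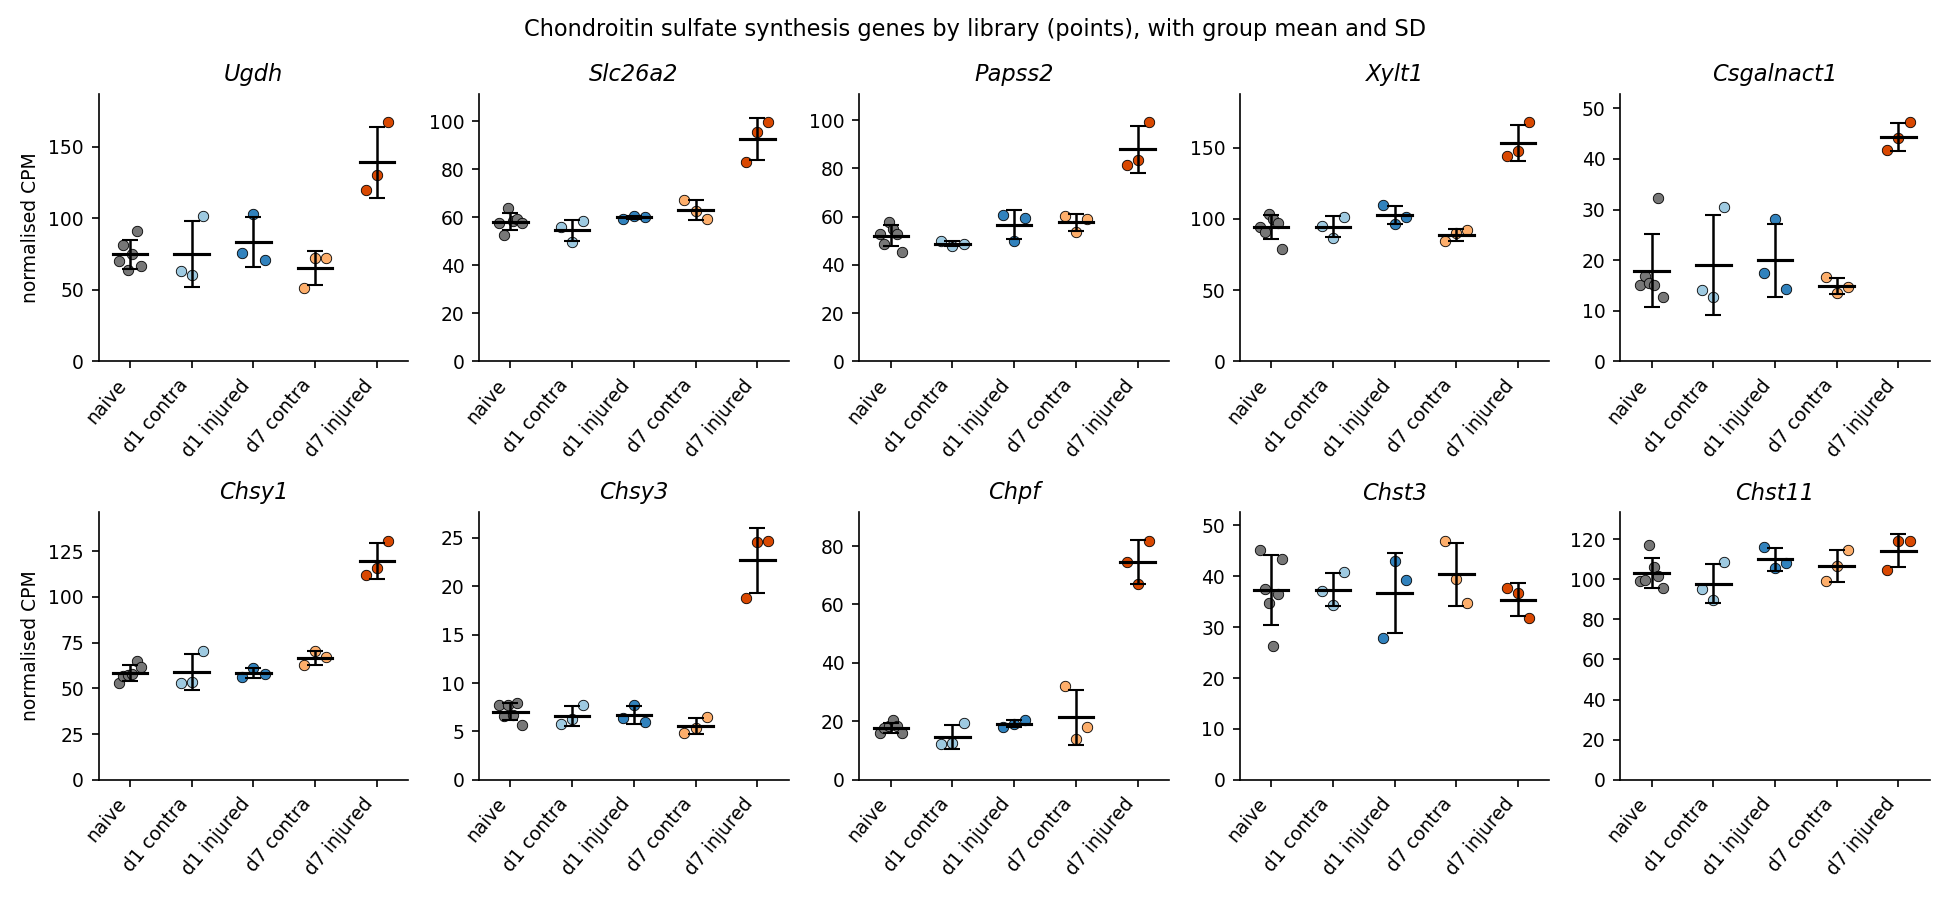
Normalised CPM (vertical axis, linear from 0) of the 10 genes in each library, with points for the 18 libraries by group and bars for the group mean and SD; contra stands for contralateral, d1 and d7 for day 1 and day 7. In 8 genes the 3 injured libraries of day 7 sit above all 15 other libraries, and for Chst3 and Chst11 the groups overlap.

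In all, 8 of the 10 members were called higher in injured knees at day 7 than in naive knees and none lower, with a call set at an adjusted p no higher than 0.05 and a difference of 1.5-fold or more. Over all 21129 genes tested, 10.4% were called higher and 6.11% lower. For those 8 members every injured library also lay above every naive library, as it did for 17.4% of all genes, and above all 15 other libraries, as for 11.9% of the 21262 genes tested in 18 libraries. The median log2 fold change of the 10 members was 0.84, and that of all genes tested was -0.04.

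Against the contralateral knees of the same day, 7 members were called higher and none lower, where 9.33% of genes were called higher and 3.23% lower. The injured libraries lay above the contralateral ones for 8 members and for 18.6% of all genes. Slc26a2 was the member not called here but called against naive knees, with a log2 difference of 0.56 ± 0.09 (SE; adjusted p = 3.03e-04) below the fold limit. Without contralateral replicate 1 it reached 0.63, and 8 members were then called. The Papss2 call was lost without contralateral replicate 2 or injured replicate 3. Chst11 differed by 0.10 (95% interval -0.11 to 0.30) and Chst3 by -0.19 (95% interval -0.57 to 0.20) on the log2 scale.

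Against injured knees of day 1, 8 members were called higher at day 7 and none lower, beside 9.04% and 6.38% of all genes. These 3 comparisons share the injured libraries of day 7. TMM factors were 0.83 to 0.85 in these and 1.08 to 1.16 in injured libraries of day 1. Every naive library also had a higher factor than the injured libraries of day 7. TPM, the authors' length-corrected transcript abundance, does not use these factors. By mean TPM, the most counted transcripts of Xylt1, Slc26a2, Papss2 and Ugdh were lower at day 7 (7.04 against 8.43 for Xylt1). Those of Chpf, Chsy3, Chsy1 and Csgalnact1 were higher (9.10 against 4.56 for Chpf). Compared with naive knees, mean TPM at day 7 was higher for the most counted transcripts of all 8 called members. It was lower for those of Chst3 and Chst11. For Slc26a2 (4.70 against 3.54), Xylt1 and Papss2 this TPM difference from naive knees was less than 1.5-fold. In the fit against injured knees of day 1, Chpf had a log2 fold change of 1.98 ± 0.16 (SE), Chsy3 of 1.77 ± 0.17 (SE) and Chsy1 of 1.05 ± 0.11 (SE). Csgalnact1, at 1.17 ± 0.37 (SE; adjusted p = 0.0306), and Xylt1, at 0.60 ± 0.10 (SE), lay close to a limit of the call. Leaving out day 7 injured replicate 3 left 4 members called, and leaving out day 1 injured replicate 3 left 5.

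At day 1 no member was called in injured knees against naive or contralateral knees, and 0% of genes were called in either comparison with edgeR. An unadjusted p under 0.05 was found for 959 of 21129 genes against naive knees, none of them a member, and for 1383 against contralateral knees. The member among the latter was Chpf, at 17.9, 19.2 and 20.3 CPM in injured libraries of day 1 and 12.2, 12.5 and 19.5 CPM in contralateral ones, a log2 difference of 0.37 ± 0.16 (SE; adjusted p = 0.755) with overlapping groups. Against naive knees the members' log2 differences at day 1 ran from -0.07 for Chsy3 to 0.16 for Csgalnact1. For Chsy1 the 95% interval of this difference, -0.21 to 0.20, excluded a 1.5-fold change in either direction, while that for Csgalnact1, -0.51 to 0.83, did not.

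No member was called in contralateral knees of day 7 or of day 1 against naive knees, where 0% of all genes were called. At day 7, 3220 of 21262 genes had an unadjusted p under 0.05 and at day 1 this held for 554 of 21129. The lowest adjusted p among members was 0.313, for Chsy3 at day 7, with a log2 difference of -0.33 ± 0.15 (SE). Without contralateral replicate 1, again 0 members were called in contralateral knees of day 7 against naive knees.

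The injury effect, injured against contralateral, was larger at day 7 than at day 1 for 4 members by the interaction term, which called 3.53% of all genes higher and 0.245% lower. The log2 difference between the days was 2.0 ± 0.24 (SE; adjusted p = 1.10e-04) for Chsy3 and 1.44 ± 0.32 (SE; adjusted p = 0.0150) for Chpf. It was 0.85 ± 0.15 (SE; adjusted p = 0.00360) for Chsy1 and 0.67 ± 0.14 (SE; adjusted p = 0.0128) for Xylt1. The 3 called enzymes of chain polymerisation and a xylosyltransferase thus passed, while Csgalnact1 (1.51, adjusted p = 0.0992), Ugdh (0.94, adjusted p = 0.0880), Slc26a2 (0.42, adjusted p = 0.0809) and Papss2 (0.39, adjusted p = 0.179) did not. Chst3 and Chst11 had estimates of -0.16 and -0.07. Leaving out day 7 injured replicate 3, or day 1 contralateral replicate 3, left 2 members called, Chsy1 and Chsy3. Without day 7 contralateral replicate 1 there were 4 called, with a log2 difference of 1.87 for Chpf (adjusted p = 3.04e-04), while Slc26a2, at 0.50 (adjusted p = 0.0325), lay under the fold limit.

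**Figure D2:**
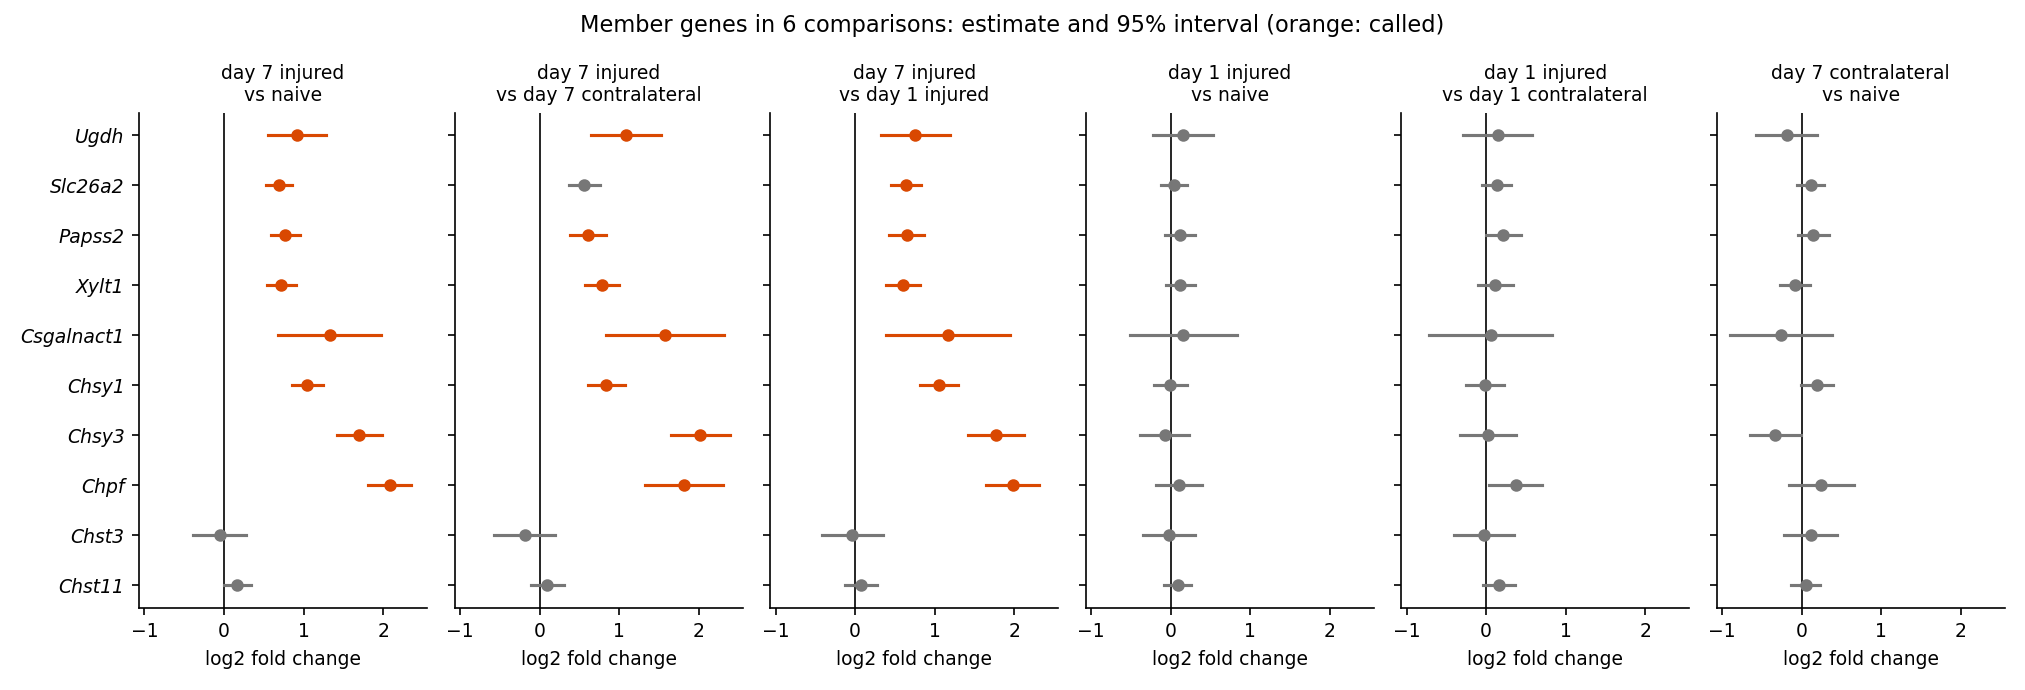
Log2 fold change (horizontal axis) of each gene in 6 comparisons, with 95% intervals as lines and called genes in orange. Orange is seen only in the panels with injured knees of day 7, for 8, 7 and 8 genes, and the Chst3 and Chst11 intervals span 0 in all 6 panels.

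Compared per kilobase of effective transcript length, Ugdh was the most abundant member in naive libraries, at 36.2 ± 6.01 CPM per kilobase (SD, n = 6). Chst11 at 19.3 and Papss2 at 19.1 followed, with overlapping ranges. Chsy1 at 14.7 and Xylt1 at 12.7 also overlapped each other, and both stood above Slc26a2 at 8.72. Slc26a2, Csgalnact1 at 6.58, Chpf at 6.51 and Chst3 at 6.32 each overlapped the next, and Chsy3 was lowest at 1.98 CPM per kilobase. In injured libraries of day 7 Ugdh was again highest at 68.9 ± 13.7 (SD, n = 3), followed by Papss2 at 33.2, Chsy1 at 29.9 and Chpf at 27.2, with overlaps between neighbours from Papss2 to Chpf. Chst11, at 21.4 CPM per kilobase, now lay below Chpf without overlap, and Chst3 at 5.99 overlapped Chsy3 at 6.44 at the bottom.

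Ratios within a library do not depend on its scaling, so the ratio of TPM, the authors' length-corrected transcript abundance, was compared for 3 pairs of enzymes between the 6 naive and the 3 injured libraries of day 7. Csgalnact1 stood at 0.126 to 0.409 of its paralogue Csgalnact2 in naive libraries, with a median of 0.183, and at 0.462, 0.532 and 0.639 in injured libraries. The log2 ratio was 1.47 higher in the injured libraries, all 3 of which exceeded all 6 naive ones, and the 2-sided exact permutation test gave p = 0.0238, the smallest it can give, and 0.0714 after adjustment over the 3 pairs. Left and right knees of naive mice were pooled apart, so by the study's pool sizes naive libraries share mice, and the p is then too small. Csgalnact2 itself differed by 0.14 ± 0.08 (SE; adjusted p = 0.209) on the log2 scale.

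The ratio of Chst11 to Chst3 ran from 2.42 to 4.47 in naive libraries and was 3.06, 3.58 and 4.16 in injured libraries, which overlapped (log2 difference 0.21, exact permutation p = 0.405, adjusted 0.405). The ratio of Papss2 to Papss1, the other PAPS synthase gene, ran from 1.61 to 2.13 in naive libraries and was 2.05, 1.98 and 2.24 in injured libraries (log2 difference 0.14, exact permutation p = 0.190, adjusted 0.286). Within these 2 pairs no shift was detectable with this number of libraries.

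A polymerising enzyme was also set against a sulfotransferase, a pairing chosen after the values were seen and given without a test. Chsy1 stood at 0.655 to 0.862 of Chst11 by TPM in naive libraries and at 1.43, 1.30 and 1.47 in injured libraries of day 7. Chpf stood at 0.306 to 0.375 of Chst11 in naive libraries and at 1.39, 1.10 and 1.35 in injured libraries. Contralateral replicate 1 of day 7, at 0.632, lay between them for Chpf.

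**Figure D3:**
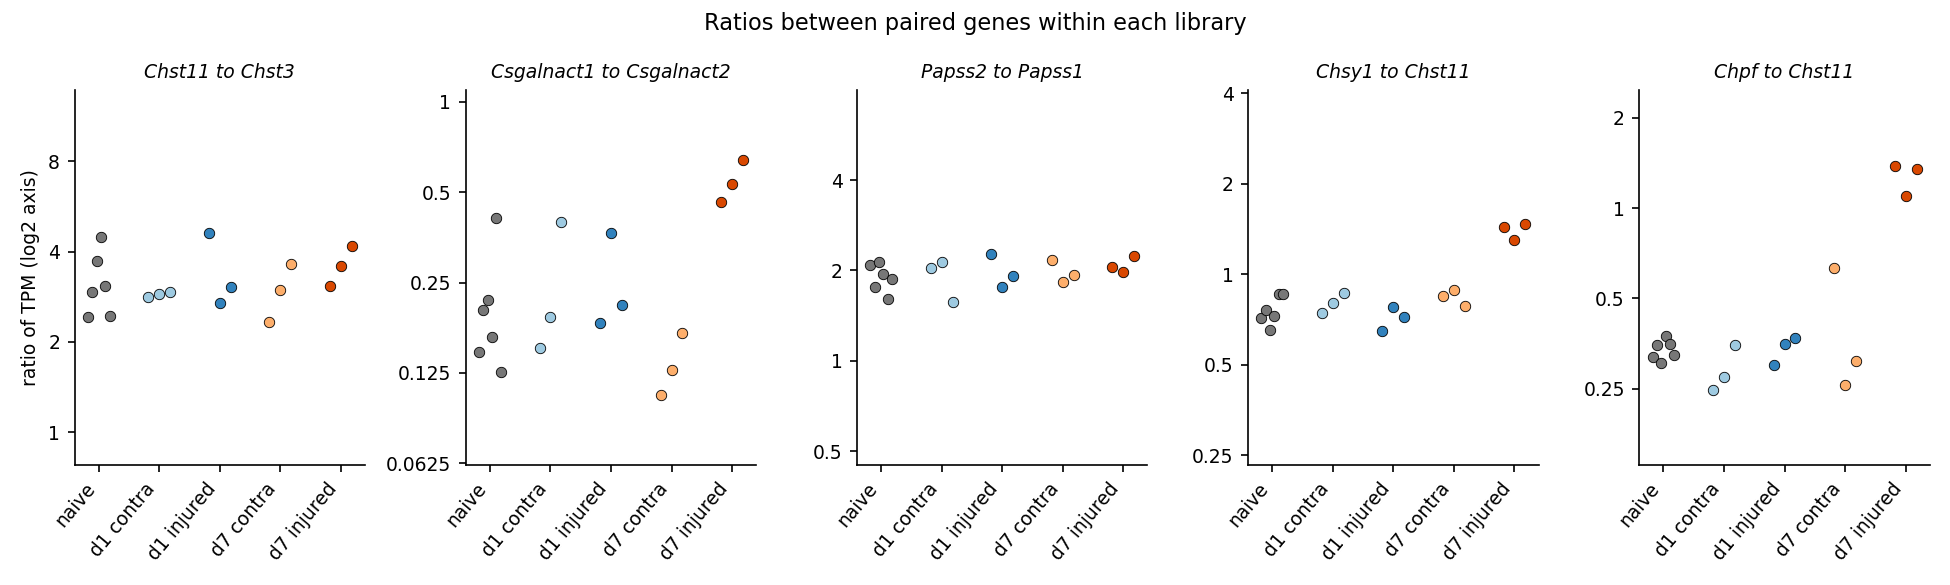
Ratio of TPM between 2 genes within each library, on a log2 axis, with a point for each of the 18 libraries by group. The injured libraries of day 7 lie above all others for Csgalnact1 to Csgalnact2, Chsy1 to Chst11 and Chpf to Chst11, and among them for Chst11 to Chst3 and Papss2 to Papss1.

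Outside the 10 members, 13 of 28 other genes of the same 5 steps were called higher in injured knees of day 7 than in naive knees and none lower, where 10.4% of all genes were called higher and 6.11% lower, with a median log2 fold change of 0.52. Against contralateral knees of day 7, 8 of the 28 were called higher and 1 lower, beside 9.33% and 3.23% of all genes, with a median of 0.27. Leaving out injured replicate 3 lost the calls of Xylt2, Chst14 and Gfpt1 in this comparison. The Xylt2 call was also lost with only the groups compared and without contralateral replicate 2 or 3 or injured replicate 1, and that of Gfpt1 with a length offset. In the linker, 3 of 7 genes were called higher: Xylt1, its paralogue Xylt2 (log2 0.79 ± 0.14, SE; adjusted p = 4.27e-04) and the galactosyltransferase gene B4galt7 (0.62 ± 0.11, SE; adjusted p = 4.04e-04). The chain list had 5 of 6 higher, the fifth being Chpf2, a paralogue of Chpf, at 83.8, 86.0 and 96.9 CPM in injured libraries and 39.9 to 58.5 in naive ones (log2 0.99 ± 0.14, SE; adjusted p = 6.54e-05). Contralateral replicate 1 of day 7 held 89.5 CPM of Chpf2 against 41.7 and 42.5 in the others, and against contralateral knees the log2 difference of Chpf2 was 0.63 with it (adjusted p = 0.0773 with edgeR, not called) and 1.10 without it (adjusted p = 4.52e-04, called). With the library kept, limma-voom also called Chpf2.

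The sulfation list split by enzyme, with 5 of 10 called higher, beside 10.4% of all genes tested. Dsel, a glucuronyl epimerase that converts chondroitin to dermatan sulfate, was at 57.2, 68.0 and 73.1 CPM in injured libraries of day 7 against 12.7 to 19.3 in naive ones (log2 2.07 ± 0.13, SE; adjusted p = 2.15e-08). The related epimerase gene Dse rose by 0.98 ± 0.17 (SE) and Chst14, the dermatan 4-O-sulfotransferase gene, by 1.16 ± 0.17 (SE) on the log2 scale. Ust, whose product sulfates uronic acid, and Chst7, a 6-O-sulfotransferase gene near 3.19 CPM in naive libraries, were also called. Chst7 was at 5.90, 3.86 and 5.18 CPM in injured and 2.67 to 3.70 in naive libraries (log2 0.67 ± 0.18, SE; adjusted p = 0.0103).

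Those not called were Chst3, Chst11, Chst12, Chst13 and Chst15. Chst12, a further chondroitin 4-O-sulfotransferase gene, had a log2 difference of 0.38 ± 0.10 (SE; adjusted p = 0.0129), below the fold limit. Against contralateral knees of day 7 the list had 3 genes higher, Dsel, Dse and Chst14, and 1 lower, Chst13. The Chst13 values were 22.4, 7.67 and 7.91 CPM in contralateral and 7.67, 5.77 and 4.49 CPM in injured libraries, and the first of these, in the library that stood apart, was far above the rest. The Chst14 call in this comparison was lost with only the groups compared, and on leaving out contralateral replicate 2 or 3 or injured replicate 3 (adjusted p up to 0.139).

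Of 7 sulfate supply genes, 4 were higher: Papss2, Slc26a2, Papss1 (log2 0.67 ± 0.10, SE; adjusted p = 1.20e-04) and Impad1 (0.63 ± 0.07, SE), which codes for the Golgi phosphatase that clears the by-product of sulfation. Against contralateral knees of day 7, Papss2 was called higher and 0 of the 5 sulfate supply genes outside the members were. That Papss2 call was lost without contralateral replicate 2 or injured replicate 3. Impad1, at 0.58 on the log2 scale (adjusted p = 9.37e-05), lay just under the fold limit and was called without contralateral replicate 1 (0.62, adjusted p = 1.45e-04), without injured replicate 1 or with a length offset, and Papss1 was at 0.51 (adjusted p = 0.00443). Over all genes tested 10.4% were called higher against naive knees, and 4 of 8 UDP-sugar genes were. Besides Ugdh these were Gfpt2 (log2 1.05 ± 0.19, SE) and Gfpt1 (0.73 ± 0.08, SE), for the entry enzyme of the hexosamine pathway, and Uap1 (0.73 ± 0.17, SE), for the enzyme that makes UDP-N-acetylhexosamines. Slc35d1, for a Golgi UDP-sugar transporter, had a log2 difference of 0.31 ± 0.09 (SE; adjusted p = 0.0164), under the fold limit.

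Of the genes for core proteins that carry such chains, 6 of 11 were called higher, beside 10.4% of all genes tested. Acan was at 949, 1064 and 1252 CPM in injured libraries of day 7 against 248.8 to 587 in naive ones (log2 1.57 ± 0.20, SE; adjusted p = 3.31e-05). Bgn, for biglycan, rose by 2.30 ± 0.16 (SE) and Vcan, for versican, by 2.06 ± 0.43 (SE) on the log2 scale. Bcan was called at a level near 1.59 CPM in injured libraries, a call that was lost on leaving out any injured library or naive replicate 5 or 6 (adjusted p up to 0.113), and Prg4, for lubricin, was not called (0.65 ± 0.42, SE; adjusted p = 0.266).

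In the heparan sulfate branch 4 of 15 genes tested were called higher, including the polymerase genes Ext1 (log2 1.23 ± 0.13, SE) and Ext2 (0.67 ± 0.10, SE) and the 2-O-sulfotransferase gene Hs2st1 (1.14 ± 0.08, SE). The median log2 fold change was 0.29 in that list and 1.19 in the chain list, where 4 of the 6 genes are members, and the other 2 had a median of 0.57. In the list of breakdown enzymes, 1 of 10 was higher, the iduronate sulfatase gene Ids (0.60 ± 0.08, SE), and 1 lower, the hyaluronidase gene Hyal3, which fell by 0.75 ± 0.22 (SE; adjusted p = 0.0196) from a naive mean of 2.34 CPM. Over all genes tested 10.4% were called higher and 6.11% lower, so the breakdown counts were near those shares. Both calls were near a limit: that of Ids was lost with all 18 libraries in 1 fit and without naive replicate 5 or 6 or injured replicate 3, and that of Hyal3 with a length offset and without injured replicate 2 or 3 (adjusted p up to 0.0872).

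**Figure D4:**
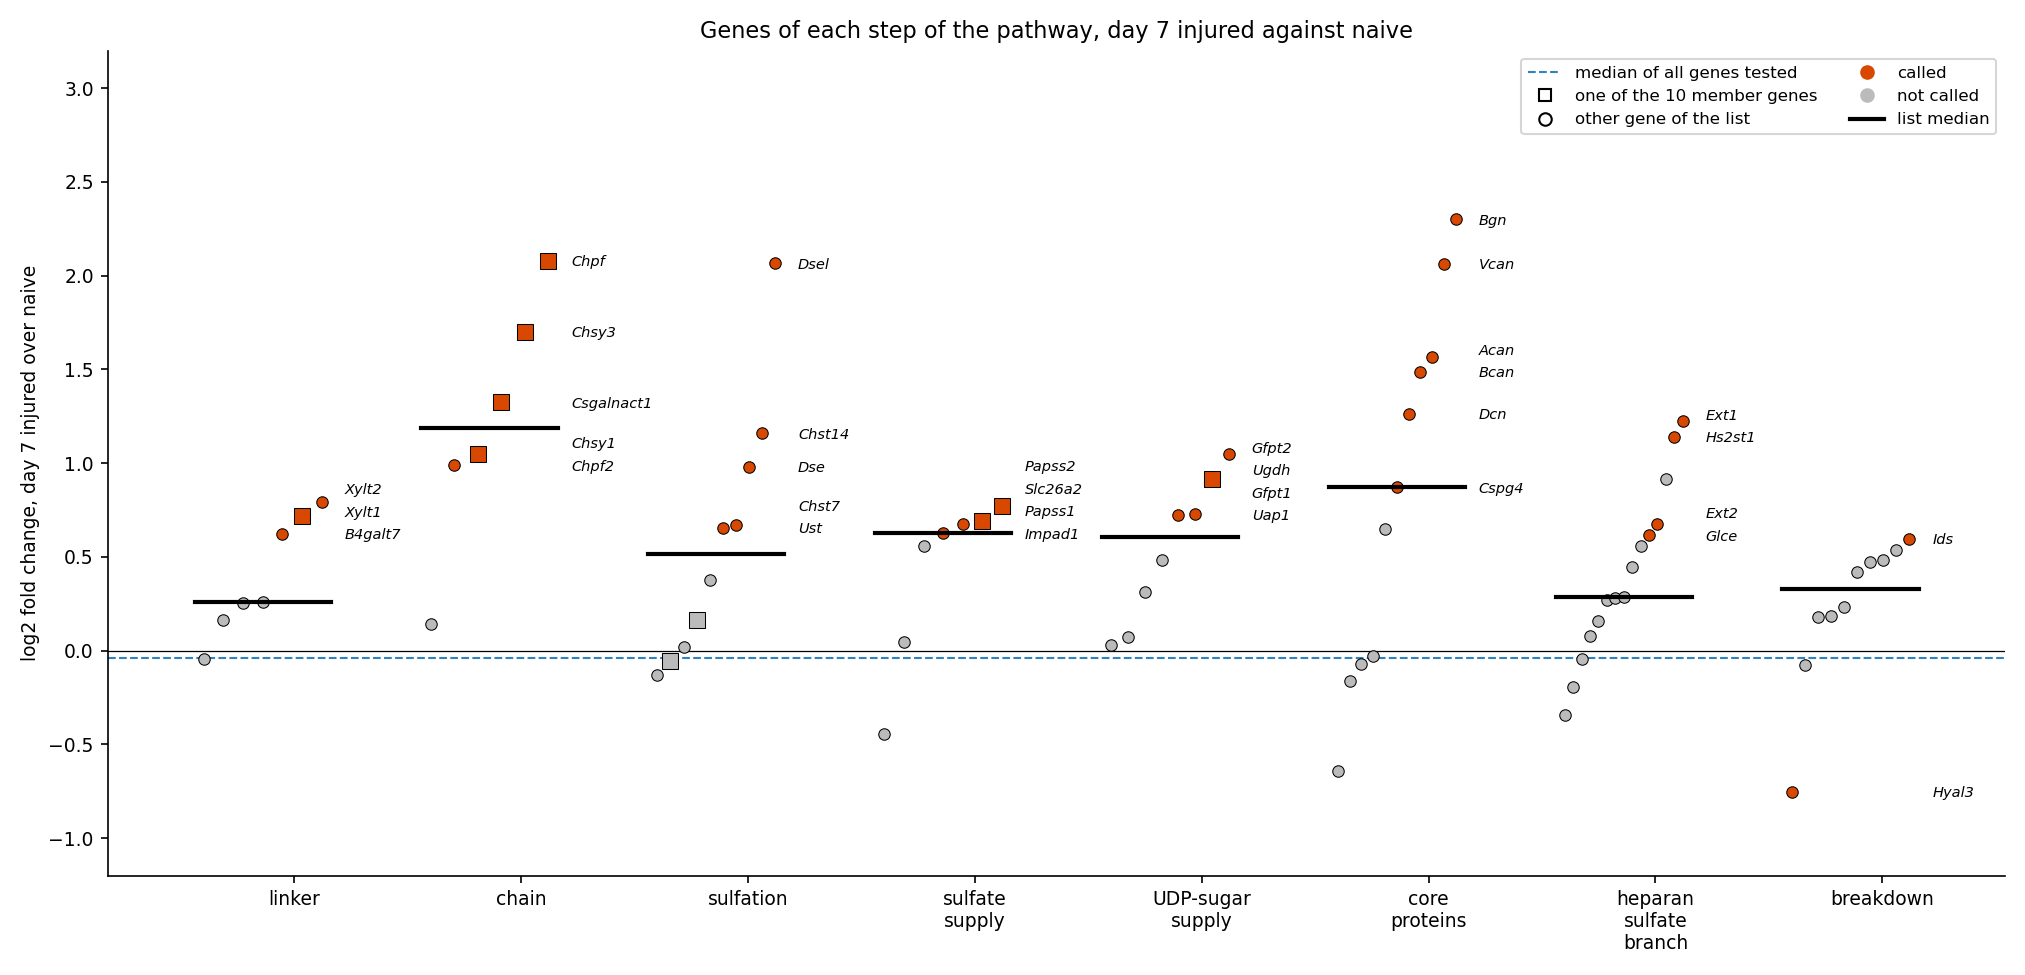
Log2 fold change of injured knees at day 7 over naive knees (vertical axis) for each gene of 8 pathway lists, with squares for the 10 members, circles for other genes, orange for called genes, which are named, and a black line for the list median. The chain list, in which 4 of 6 genes are members, has a median of 1.19, or 0.57 without them, and the sulfation list holds both uncalled members beside Dsel at 2.07.

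Several lists of cell type markers, though not all, also held called genes in injured knees at day 7. Of 12 fibroblast markers, 10 were called higher in injured knees at day 7 than in naive knees and none lower. Over all genes tested, 10.4% were called higher and 6.11% lower. Against contralateral knees of day 7, 8 of the 12 were called higher, beside 9.33% of all genes, and Col1a1 and Col1a2 were not among them. The summed level of the 12 markers was 16368 to 27901 CPM in naive libraries and 96022 to 109621 CPM in injured libraries. Col1a1 was the most abundant, with 12425 CPM in naive and 50924 CPM in injured libraries, and Col3a1 had the largest difference (log2 3.65 ± 0.27, SE). For 11 of the 12 markers every injured library of day 7 lay above every naive library, as for 17.4% of all genes.

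Of 16 chondrocyte markers 4 were higher, Acan, Comp, Sox9 and Col11a1, and Col2a1 was not called (log2 0.25 ± 0.20, SE). Among all genes tested 10.4% were higher and 6.11% lower in this comparison with naive knees. Erythroid markers were lower for 4 of 8, neutrophil and marrow markers for 2 of 9 and skeletal muscle markers for 1 of 9. The erythroid sum averaged 34601 CPM in naive and 22600 CPM in injured libraries, without overlap. The neutrophil sum averaged 12690 and 9433 CPM and the muscle sum 6305 and 3534 CPM, and for both the libraries overlapped. In contralateral libraries of day 7 the muscle sum averaged 4256 CPM. Macrophage markers, at 746.5 CPM in naive and 891 CPM in injured libraries, had none of 10 called. Of 10 osteoblast and osteocyte markers 1 was higher, Ibsp, and 2 were lower, Sost and Mepe. No marker of any list was at 0 in any library, and the part of these cell types in the differences of the 10 genes was not tested.

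**Figure D5:**
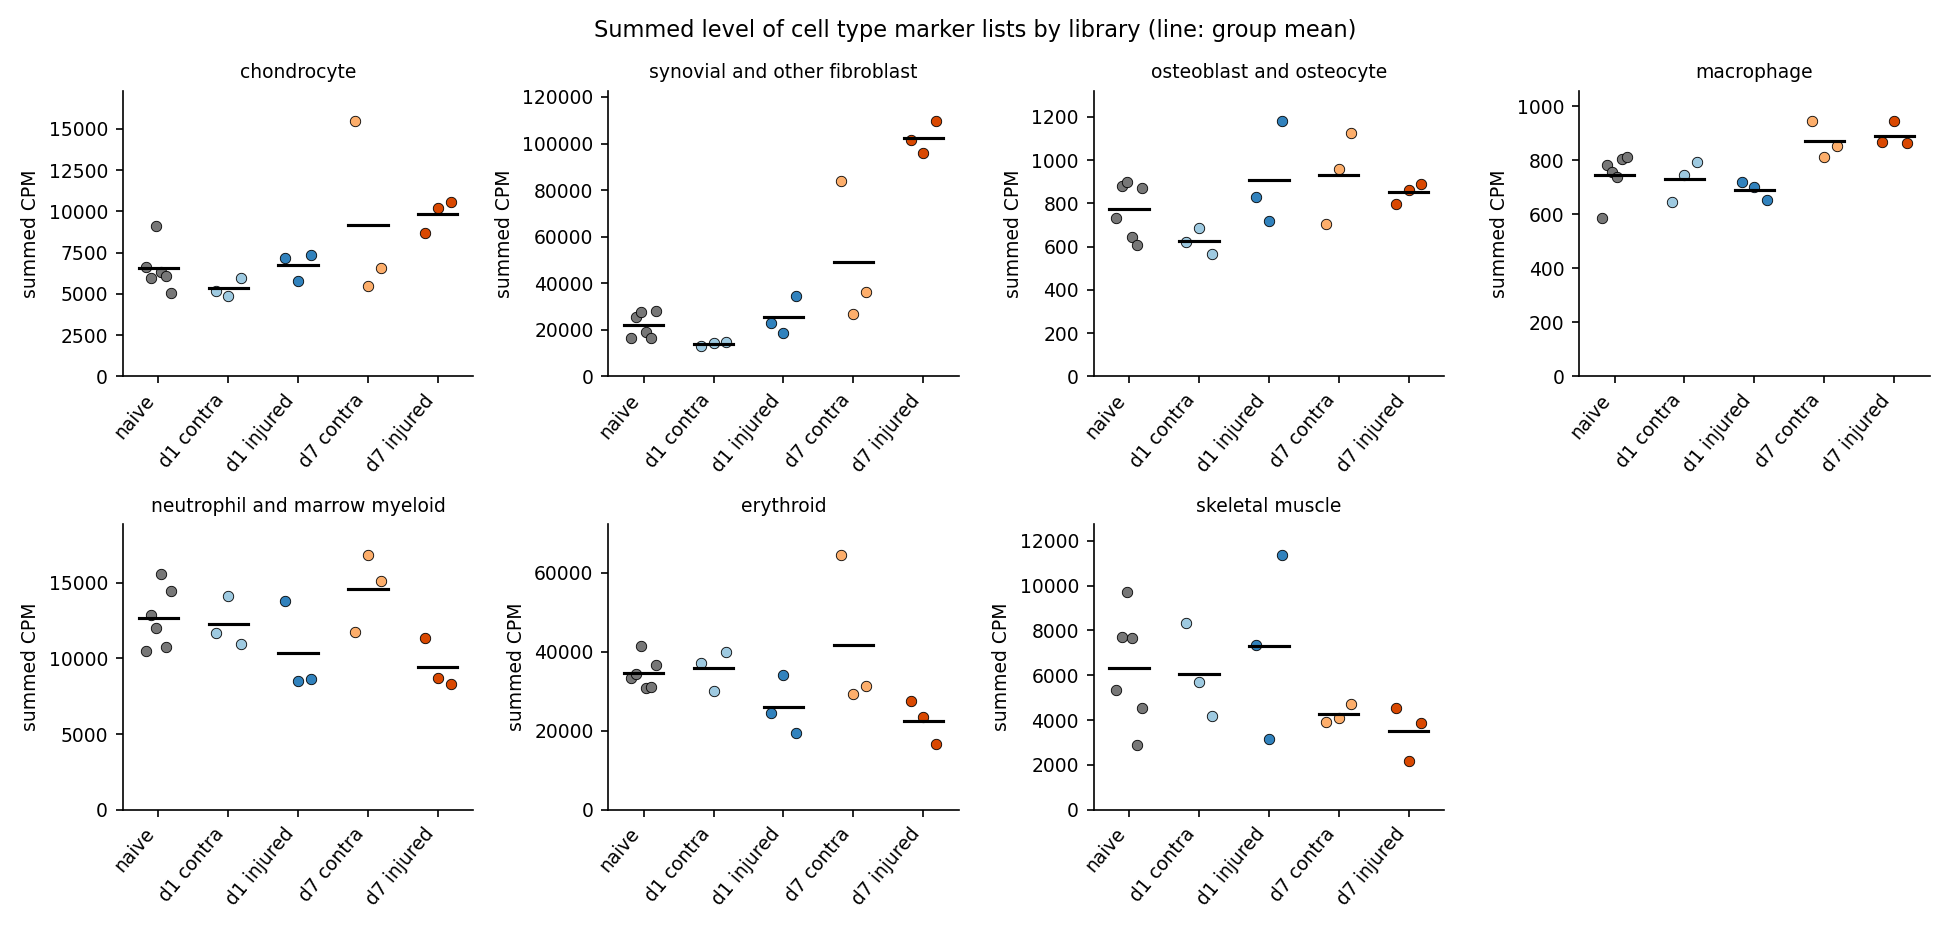
Summed CPM (vertical axis, linear from 0) of 7 lists of cell type markers in each library, with a line for the group mean. Fibroblast markers are highest in the 3 injured libraries of day 7, and contralateral replicate 1 of day 7 is the next highest at 83802 CPM, a sum made mostly of Col1a1 and Col1a2.

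The gene whose profile over the 18 libraries lay nearest to each member was found among 9888 or 9889 genes with a mean of at least 10 CPM, as the root mean square (RMS) difference of log2 CPM after centring each gene. For Slc26a2 it was Gfpt1 (0.07) and for Chst11 it was Rdx, for radixin (0.07). Chsy1 lay nearest to Dap and Xylt1 to Arhgap35 (both 0.08), Papss2 to Apbb2 (0.09) and Chst3 to Snn (0.10). Ugdh lay nearest to Lhfpl2 (0.11), Chpf to the collagen prolyl hydroxylase family gene P3h3 (0.13), Csgalnact1 to Vim, for vimentin (0.14), and Chsy3 to Lrig3 (0.15). The median RMS difference from all genes compared was 0.24 for Chst11 and 0.81 for Chpf.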

How the data were processed

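Per the labels and the study's methods, the authors made stranded total RNA libraries depleted of ribosomal RNA, trimmed the reads and quantified transcripts with kallisto against a mouse transcriptome of GRCm38. The builds in the submitters' notes name GRCh38, which the mouse transcript identifiers contradict. The deposited tables give estimated counts and TPM, computed by the authors per transcript, and an effective length in bases. Estimated counts of 135107 of 137436 transcripts (98.3%) matched GENCODE vM21 and were summed into 49184 genes and rounded. The other transcripts held 0.667% to 3.90% of counts per library and were left out.

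Genes were filtered with filterByExpr, scaled with TMM and fitted in edgeR 4.0.16 under R 4.3.3, with its quasi-likelihood test. The study used limma-voom with duplicateCorrelation, to allow for libraries from one pool of mice. Benjamini-Hochberg adjustment ran over all genes. Comparisons without the day 7 contralateral group used 15 libraries and 21129 genes, and the others 18 libraries and 21262 genes. A call was an adjusted p of at most 0.05 and at least 1.5-fold. CPM values are on the TMM scale, and those per kilobase are divided by the mean effective length. The likeness of profiles added 0.5 to CPM. TPM was used for ratios within a library, transcript shares and means of single transcripts. The script was tested on simulated data. The study left out 1 library of the ACL model for a low mapping rate, which one is not given in the sources used here, and all 18 libraries were kept. P-values measure the spread between pools, and precision is limited by the number of libraries. Left and right knees of naive mice were pooled apart, so the 6 naive libraries are not all independent, and p-values and errors from edgeR that use them can be too small.

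The genes named were the 10 members, 7 preset partner genes, Acan, up to 3 called genes in each direction of each pathway list by size, the most abundant marker of each list, and the nearest gene by profile. Ust, Chst13, Chst15, Prg4 and some other list genes were named after their values were seen, as were the described ratios to Chst11 and TGACGTCA. Beside the 8 genes of the UDP-sugar list, 1 further gene is not reported here. The members and lists were chosen with earlier results of these data known. Promoters came from RefSeq. DESeq2 1.42.0, limma-voom (limma 3.58.1), other scaling, filters and limits, and leaving out each library were tried as alternatives.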

Additional observations from a re-analysis of the deposited data

Results flagged for a closer look

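In naive replicate 5, 7 of 34 named genes had a value far above the other 5 naive libraries by Dixon's gap test, which flags about 1 group in 20 by chance. These were Csgalnact1 at 32.3 CPM, Chpf2 at 58.5, Xylt2 at 13.1, Dse at 57.5, Uap1 at 71.1, Vcan at 197 and Ext1 at 47.2 CPM. All 7 are also called higher in injured knees of day 7, as are 28 of the 34 named genes, many of which were named for that call. The skeletal muscle markers summed to 2869 CPM in this library, the lowest of the naive group. In day 1 injured replicate 2 and day 1 contralateral replicate 3, where Csgalnact1 was also highest of its group, the muscle sum was 3176 and 4170 CPM, again the lowest of each group. The same 3 libraries also differed from the other naive and day 1 libraries in Prg4, at 1409, 1775 and 1649 CPM against at most 892, and in the fibroblast marker Clec3b, at 2.71, 2.77 and 2.55 CPM against at least 13.4. The part of muscle or other tissue RNA in these values was not tested.

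The injury effect differed between day 7 and day 1 by the interaction term for 11 named genes. The log2 difference was 0.85 for Chsy1, 2.0 for Chsy3, 1.44 for Chpf, 0.67 for Xylt1 and 1.31 for Acan. It was 0.84 for B4galt7, 1.93 for Dsel, 0.99 for Dse, 2.13 for Bgn, 0.99 for Ext1 and 0.77 for Hs2st1. The Acan call was lost with DESeq2 size factors and on leaving out most single libraries (adjusted p up to 0.143), and that of Dse under most alternatives (up to 0.284). That of Ext1 was lost with a length offset or without day 7 injured replicate 3 (up to 0.0875), and that of B4galt7 without day 1 contralateral replicate 3 (0.0592). Calls of all 4 genes and of Chpf and Xylt1 were also lost at an adjusted p of at most 0.01.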

How the results depend on the processing

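No alternative reversed a called difference. In injured knees of day 7 against naive knees, the same 8 members were called under every alternative run, leaving out each library included. No calls were made from TPM. By mean TPM the most counted transcripts of Slc26a2, Xylt1 and Papss2 rose by less than the fold limit. Against contralateral knees of day 7 the number called ran from 6 to 8 on leaving out a library, with Papss2 lost without contralateral replicate 2 or injured replicate 3. Against injured knees of day 1 it ran from 4 to 8. Xylt1 was lost there with DESeq2 size factors, a length offset, the DESeq2 Wald test or all 18 libraries in 1 fit. For the interaction it ran from 2 to 5 on leaving out a library, and was 2 at an adjusted p of at most 0.01 and 6 with the DESeq2 Wald test. It was 3 with only the groups compared or without day 1 injured replicate 1, where Chpf was lost. With a length offset it was also 3, as Xylt1 was then at a log2 difference of 0.52, under the fold limit. Over all alternatives the highest adjusted p was 0.0683 for Chpf and 0.119 for Xylt1. The 4 comparisons of day 1 and contralateral knees had 0 members called under every alternative. The log2 differences of the 3 ratios kept their direction. None had an adjusted p of 0.05 or less, with or without an alternative. A single pair at the smallest p of the exact permutation test, 0.0238, has an adjusted p of 0.0714, so this lack of a call does not show stability. Of other genes against naive knees, the Chst7 call was lost without injured replicate 1 (adjusted p = 0.0681) and that of B4galt7 without naive replicate 1, under the fold limit. Causes of lost calls were not tested. No paired analysis was run, because the labels give no replicate numbers that link libraries of different groups. The study's own fit did allow for libraries from one pool of mice.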
